A study of Mus musculus with 8 samples.

Results

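Regulatory T cells (Tregs, CD4 T cells that restrain immune responses under the transcription factor Foxp3) of injured muscle were compared with Tregs of the spleen of young mice, over all genes. The comparison used 4 of the 8 libraries of the study, chosen by their labels as young: 2 from muscle and 2 from spleen. All 4 came from 2-month-old male C57BL/6 mice whose tibialis anterior, quadriceps and gastrocnemius muscles had received 0.9 µg cardiotoxin each, a venom toxin that destroys muscle fibres. Muscle and spleen were taken 4 days after injury, so the spleen libraries also come from injured mice and no library comes from uninjured muscle. Each library was made from 1500 Tregs sorted in 2 rounds, and the labels do not give the markers of the sort. The other 4 libraries, from the same tissues of male C57BL/6 mice over 6 months old treated alike, entered the model for the estimate of spread and one comparison. Replicates are given as biological duplicates, with no word on single animals or pools. A p-value here therefore reflects how much these particular libraries vary, which may in part be technical.

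Tregs of lymphoid organs recirculate through blood and lymph, guided by the chemokine receptor Ccr7 and the transcription factor Klf2. Tregs of tissues instead carry receptors for inflammatory chemokines and for the alarm cytokine IL-33, and in regenerating muscle they are known to make amphiregulin (Areg), an epidermal growth factor family ligand that acts on muscle progenitors. Their state is shaped by antigen receptor signals through AP-1 and Nr4a factors and by effector factors such as Irf4 and Prdm1.

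Totals were 2375505 and 2798590 counts in young spleen replicates 1 and 2, and 2608695 and 1969982 in young muscle replicates 1 and 2. The spleen pair correlated at a Spearman rho of 0.965 over genes and the muscle pair at 0.893. Young muscle replicate 1 stood apart by transcripts listed as markers of myeloid cells and fibroblasts. Summed markers of macrophages, monocytes and neutrophils came to 1741 CPM (counts divided by the library total after TMM scaling) in it, against 422 in young muscle replicate 2 and 512 and 378 in spleen. Summed fibroblast markers came to 2348 CPM against 1227 in replicate 2, and 966.5 and 915 in spleen. That list includes Thy1 and Ly6a, which T cells also express, so its sums are not of fibroblast transcripts alone. Summed markers in muscle replicates 1 and 2 were 187 and 270 CPM for muscle fibres, 681 and 710 for B cells. They were 236 and 289 for endothelial cells, 253 and 20.8 for erythroid cells, and 46 and 30.2 for CD8 T and NK cells. Every call below was therefore also made without young muscle replicate 1, and the part of these transcripts in other results was not tested.

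Of 14772 genes tested, 1681 (11.4%) were higher in young muscle and 1609 (10.9%) lower by edgeR's quasi-likelihood test at a Benjamini-Hochberg adjusted p of 0.05. Of these, 1285 and 1254 passed in the same direction without young muscle replicate 1, a fit in which 11.4% of genes tested were higher and 9.85% lower. Fewer passed with 1 spleen library: 675 higher and 808 lower without young spleen replicate 1, and 810 and 850 without replicate 2. The balance of directions moved with the method: 1902 genes were higher and 1284 lower under library-size scaling, 1900 and 1314 by DESeq2, and 1632 and 1270 with only the young groups in the edgeR fit. The higher group held the larger differences: 899 genes were higher by more than 2 on the log2 scale and 247 lower by as much. Myeloid and fibroblast marker lists had medians of 2.37 and 2.49, and of 0.05 and 0.08 without young muscle replicate 1. At equal depth more genes were found in muscle than in spleen. The part of either in this imbalance was not tested. Both muscle libraries lay above both spleen libraries in 31.7% of the genes tested and below both in 30%, so a lack of overlap alone is common here. Among called genes, 1 higher and 0 lower overlapped between tissues, so a lack of overlap adds little to the calls below. The median log2 fold change over all genes was 0.07. Plain library-size scaling shifted that median by 0.114, and fold changes here are relative to TMM scaling. In bulk RNA, fewer cells expressing a gene and less RNA per cell cannot be told apart. Values below are CPM in replicates 1 and 2 of each tissue, followed by the log2 fold change of muscle over spleen with its SE and the edgeR adjusted p.

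**Figure D1:**
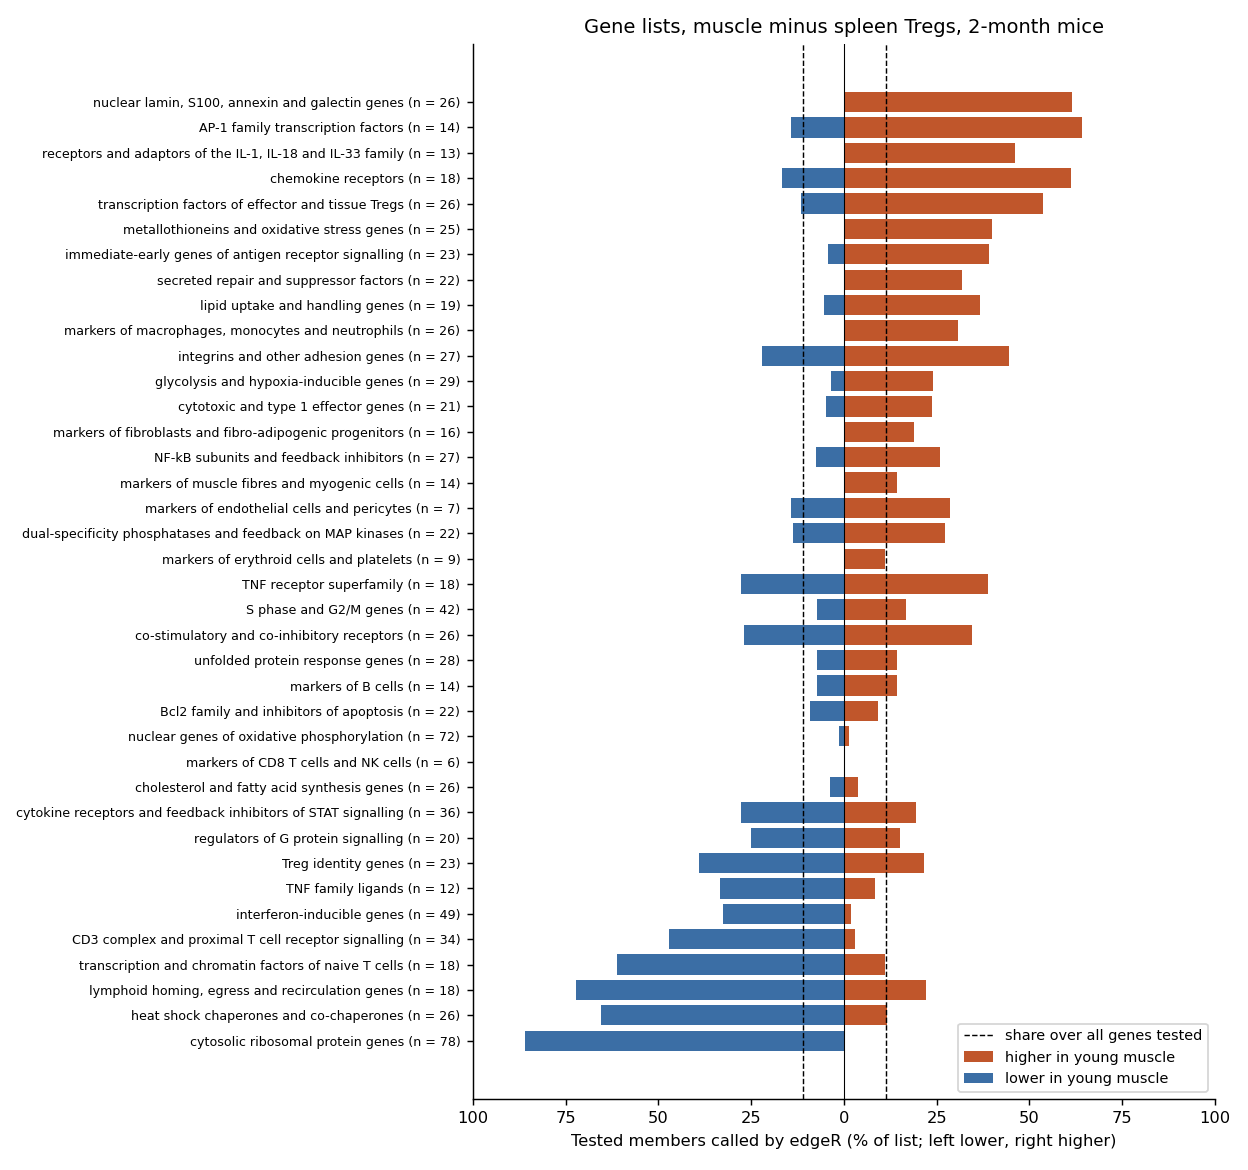
Share of tested members of each gene list called higher (right, orange) or lower (left, blue) in young muscle than in young spleen by edgeR, in percent, with the number tested in brackets. Dashed lines mark the shares over all genes tested, 11.4% higher and 10.9% lower. Chemokine receptors lie far to the right and ribosomal proteins far to the left.

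The sorted cells carried Treg transcripts in both tissues. Foxp3 (chromosome X, 7573644 to 7595245) read 15.4 and 24.8 CPM in spleen and 24.5 and 41.5 in muscle, a log2 fold change of 0.70 ± 0.41 (edgeR adjusted p = 0.23), and the ranges overlapped. The coreceptor Cd4 differed by 0.10 ± 0.16 (edgeR adjusted p = 0.68). Of 23 Treg identity genes, 5 were higher and 9 lower, with a median of -0.37. The inhibitory receptor gene Ctla4 (chromosome 1, 60887000 to 60915832) read 481 and 529 CPM in spleen and 2471 and 2471 in muscle, 2.29 ± 0.14 (edgeR adjusted p = 5.5e-08). The integrin gene Itgae, whose product binds E-cadherin on epithelium, rose from 65.4 and 62.4 to 553 and 538 CPM, and Tnfrsf18, the costimulatory receptor GITR, from 274 and 263 to 612 and 679 CPM. In each of these 3 genes both muscle libraries lay above both spleen libraries. The orphan receptor gene Gpr83 fell from 128 and 148 CPM to 2.01 and 6.49, a difference of -5.07 ± 0.38, and Ikzf4, an Ikaros family factor that works with Foxp3, from 175 and 191 to 69.6 and 79.4 CPM. The identity genes therefore moved in both directions.

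Chemokine receptors were the list most often higher among the homing genes. Of 18 tested, 11 were higher and 3 lower (lower: 1 without young spleen replicate 1), with a median of 1.54. Ccr3 (chromosome 9, 124021972 to 124031689), a receptor for eotaxins, read 1.87 and 2.32 CPM in spleen and 196 and 198 in muscle, 6.51 ± 0.30 (edgeR adjusted p = 3.5e-09). The 2 muscle libraries were nearly equal and the spleen libraries were close to the lower limit of the counts. Ccr2 (chromosome 9, 124101950 to 124113557), the receptor for the monocyte chemokine Ccl2, read 25.7 and 25.2 CPM in spleen and 640.1 and 685 in muscle, 4.7 ± 0.19 (edgeR adjusted p = 2.2e-09). Cxcr6, the receptor for Cxcl16, rose from 5.14 and 3.49 to 78 and 65.9 CPM. No muscle library overlapped a spleen library for any of these, which was a condition for being named among the largest fold changes. Ccr10 differed by 5.52 ± 0.66, Cx3cr1, the fractalkine receptor, by 2.42 ± 0.19, Cxcr3 by 1.28 ± 0.21 and Cxcr4 by 1.15 ± 0.19.

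Genes of lymphoid homing and recirculation were mostly lower. Of 18 tested, 13 were lower and 4 higher (higher: 2 without young spleen replicate 1), with a median of -1.75. Ccr7 (chromosome 11, 99144196 to 99155077), which leads T cells into lymph nodes, read 386 and 315 CPM in spleen and 48.3 and 36.5 in muscle, -3.04 ± 0.23 (edgeR adjusted p = 2.9e-07). Klf2 fell from 647 and 628 to 292 and 238 CPM, -1.26 ± 0.16. The spleen libraries lay above the muscle libraries in both genes. Among adhesion genes, 12 of 27 were higher (7 without young spleen replicate 1) and 6 lower. Cd44, the hyaluronan receptor, rose from 86.5 and 93.8 to 402 and 334 CPM and Icam1, a ligand of leukocyte integrins, from 74.8 and 61.2 to 355 and 354. Itga4, the alpha-4 integrin chain, fell from 358 and 306 to 44.3 and 82.4 CPM, whereas Itgav, the alpha-V chain, differed by 1.21 ± 0.16 in the other direction.

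Receptors of the IL-1, IL-18 and IL-33 family were higher or not called. Of 13 tested, 6 were higher and 0 lower (1 lower before adjustment, at p under 0.05), and the median was 1.01. Il1rl1 (chromosome 1, 40429570 to 40465415), the IL-33 receptor ST2, read 13.6 and 10.8 CPM in spleen and 111 and 136 in muscle, 3.35 ± 0.27 (edgeR adjusted p = 4.7e-07). Il1rap, the chain that the IL-1 and IL-33 receptors share, read 25.2 and 15.9 and 16.9 and 26.5 CPM, overlapping between tissues, 0.08 ± 0.41 (edgeR adjusted p = 0.91). The IL-18 receptor chains rose together: Il18r1 from 22 and 21.7 to 88.9 and 115 CPM and Il18rap from 4.21 and 5.81 to 37 and 50.5. The signalling IL-1 receptor Il1r1 rose from 0.935 and 1.16 to 23.3 and 21 CPM, and the decoy receptor Il1r2 from 13.1 and 14.7 to 62.4 and 34.5. The adaptor kinase gene Irak2 differed by 1.01 ± 0.18.

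Secreted repair and suppressor factors were higher in part. Of 22 tested, 7 were higher and 0 lower, with a median of 1.37 (edgeR; 0 lower also by DESeq2). Without young muscle replicate 1 the count was 7 and the median 0.48. Areg (chromosome 5, 91139599 to 91148432) read 18.2 and 20.5 CPM in spleen and 197 and 118 in muscle, 3.02 ± 0.27 (edgeR adjusted p = 3.0e-06). Il10, an anti-inflammatory cytokine gene (chromosome 1, 131019845 to 131024974), read 34.1 and 41.5 CPM in spleen and 326 and 266 in muscle, 2.96 ± 0.19 (edgeR adjusted p = 8.4e-08). The muscle libraries exceeded the spleen libraries without overlap in both genes, and replicate 1 was the higher of the 2 muscle libraries. Fgl2, a fibrinogen-like protein that Tregs secrete, rose from 15.9 and 22.9 to 232 and 208 CPM. Metrnl, the gene of a secreted meteorin-like factor, rose from 5.61 and 1.55 to 111 and 88.4 CPM, and Furin, a protease that activates TGF-beta, from 155 and 131 to 399 and 303.

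Among 21 cytotoxic and type 1 effector genes, 5 were higher (3 without young spleen replicate 1 or without young spleen replicate 2) and 1 lower (0 without young spleen replicate 2). Gzmb (chromosome 14, 56258838 to 56262260), the protease granzyme B, read 5.14 and 23.2 CPM in spleen and 442 and 481 in muscle, 4.97 ± 0.43 (edgeR adjusted p = 7.0e-05). The spleen pair was spread widely while the muscle pair was close. The tissues did not overlap, which was a condition for being named among the largest fold changes. Markers of CD8 T and NK cells gave 0 higher and 0 lower of 6 tested by edgeR and by DESeq2. Before adjustment, at p under 0.05, edgeR gave 0 higher and 1 lower. Of 26 co-stimulatory and co-inhibitory receptors, 9 were higher and 7 lower. Klrg1, a lectin-like receptor of terminally differentiated Tregs, rose from 42.1 and 34.9 to 1036 and 909.7 CPM, 4.66 ± 0.21 (edgeR adjusted p = 3.2e-09). The costimulator Icos rose from 425 and 482 to 2388 and 2411 CPM and Havcr2, the inhibitory receptor Tim-3, from 5.14 and 1.16 to 39 and 43.

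Of 18 TNF receptor genes, 7 were higher and 5 lower (2 lower with any 1 of the 4 young libraries left out, 3 under library-size scaling or by DESeq2). Tnfrsf9, the costimulator 4-1BB, rose from 127 and 93 to 424 and 412 CPM, Tnfrsf4, the costimulator OX40, from 251 and 272 to 664 and 655, and Tnfrsf1b, the TNF receptor that Tregs carry, from 201 and 176 to 509 and 578. Of 12 TNF family ligand genes, 4 were lower and 1 higher (higher: 2 without young muscle replicate 2; 2 by DESeq2). The lymphotoxin gene Lta fell from 79 and 89.1 to 11.3 and 13.5 CPM and Ltb from 995 and 1000.4 to 385 and 362. Tnfsf8, the ligand of CD30, fell from 59.8 and 79.8 to 1.21 and 5.0 CPM, and Tnfsf11, the ligand RANKL, from 41.6 and 33.3 to 8.05 and 6.49. The 1 ligand that was higher was Cd40lg, the helper ligand of B cells, from 24.3 and 20.5 to 196 and 306 CPM, 3.48 ± 0.35 (edgeR adjusted p = 4.1e-05).

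**Figure D2:**
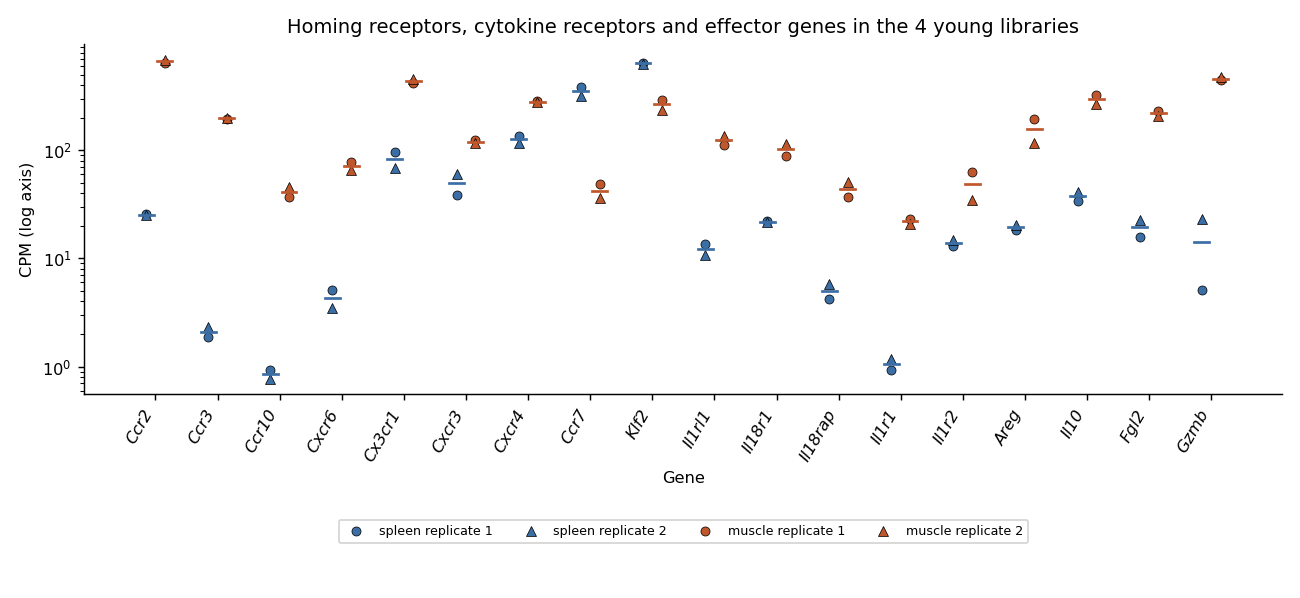
CPM on a log axis in the 4 young libraries for homing receptors, cytokine receptors and effector genes. Circles are replicate 1, triangles replicate 2 and short lines the mean of 2. Muscle (orange) lies above spleen (blue) for every gene shown except Ccr7 and Klf2, where it lies below.

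Transcription factors of the naive state were mostly lower. Of 18 tested, 11 were lower and 2 higher, with a median of -1.34. Tcf7 (chromosome 11, 52252371 to 52283014), the factor TCF-1 that keeps T cells in a stem-like state, read 382 and 382 CPM in spleen and 21.7 and 14.5 in muscle, -4.38 ± 0.21 (edgeR adjusted p = 4.2e-09). Its relative Lef1 fell from 659 and 517 to 68.4 and 83.4 CPM. Bach2, a repressor of effector genes, fell from 622 and 586 to 46.7 and 85.9 CPM. These 3 genes were many times higher in both spleen libraries than in either muscle library. Satb1, a chromatin organiser, differed by -1.63 ± 0.16, Id3, an inhibitor of E proteins, by -3.81 ± 0.29, and Foxp1, a factor of quiescence, by -1.76 ± 0.14.

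Transcription factors of effector and tissue Tregs went the other way. Of 26 tested, 14 were higher and 3 lower (lower: 1 without young spleen replicate 2), with a median of 0.86. Irf4 (chromosome 13, 30749226 to 30766976) read 72.9 and 60.1 CPM in spleen and 445 and 389 in muscle, 2.65 ± 0.18 (edgeR adjusted p = 1.1e-07). Prdm1, the factor Blimp-1, rose from 19.2 and 20.9 to 70 and 86.4 CPM, and Rora, a nuclear receptor of tissue lymphocytes, from 64 and 88.7 to 327 and 364. Pparg, known for its role in adipose tissue Tregs, read 2.8 and 0.387 CPM in spleen and 22.9 and 30.5 in muscle, 4.09 ± 0.72 (edgeR adjusted p = 0.00094). Its spleen values rest on few counts, and both muscle libraries were higher. Id2 differed by 1.73 ± 0.25, Runx2 by 2.34 ± 0.19, Cebpb by 2.3 ± 0.20, Nfil3 by 2.04 ± 0.25 and Crem by 2.38 ± 0.17. Gata3, which supports Tregs of barrier tissues, read 289 and 253 CPM in spleen and 265 and 264 in muscle, overlapping, -0.04 ± 0.16 (edgeR adjusted p = 0.89). Bcl6, the factor of follicular cells, fell from 162 and 141 to 42.6 and 32.5 CPM.

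The AP-1 family, dimers of Fos, Jun, Atf and Maf proteins, split by member. Of 14 tested, 9 were higher and 2 lower, with a median of 1.39. Fosb (chromosome 7, 19302696 to 19310051) read 80.4 and 59.3 CPM in spleen and 888 and 932 in muscle, 3.71 ± 0.19 (edgeR adjusted p = 6.8e-09). Fosl2 rose from 36.5 and 22.1 to 326 and 335 CPM. Junb rose from 1129 and 1074 to 2773 and 2764 CPM and Jund from 782 and 816 to 2263 and 2379. Jun (chromosome 4, 95049034 to 95052222) went against them, from 849.6 and 813 to 253 and 237 CPM, -1.76 ± 0.16 (edgeR adjusted p = 2.0e-06). The Jun genes of the family therefore differed in direction with no overlap between tissues. The other member that was lower was Maff, a small Maf protein, at 87.9 and 101 CPM in spleen and 31.8 and 28.5 in muscle.

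An AP-1 element (TGANTCA, both strands) was searched in the 250 bases upstream of RefSeq start sites on GRCm38.p6. The element stood in 6.19% of the promoters of higher genes, 3.89% of those of lower genes, 4.65% of those of all genes tested and 6.75% of all promoters in the table. Other motifs were searched alike, with shares for higher, lower and all genes tested in that order. The Nr4a element (AAGGTCA) gave 2.81%, 3.38% and 2.97%. The Tcf/Lef element (CTTTGAT) gave 2.17%, 1.78% and 2.35%, and the E-box (CACGTG) 7.15%, 7.9% and 7.83%. Promoters of 1188 of the 1681 higher and 1190 of the 1609 lower genes were matched by symbol. A match describes letters and not a bound site. The stretches below are 80 bases each, 5′ to 3′ on the gene's strand. They show the AP-1 element in capitals in 4 genes described above and the cyclic AMP response core in Areg. That core is TGACGTC on both strands, and its matches overlap here. It stood in 4.21% of the promoters of higher genes, 3.7% of lower, 4.31% of genes tested and 2.78% of all promoters. These 5 were chosen after their values were seen. The matches begin 144, 58, 16, 48 and 60 bases upstream of the start site in that order.
Ccr3, chr9:124021792-124021871, plus strand: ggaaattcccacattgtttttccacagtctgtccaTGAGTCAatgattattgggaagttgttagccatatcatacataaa
Gzmb, chr14:56262348-56262427, minus strand: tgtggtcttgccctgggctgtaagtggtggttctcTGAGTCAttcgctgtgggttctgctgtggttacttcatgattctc
Fgl2, chr5:21372593-21372672, plus strand: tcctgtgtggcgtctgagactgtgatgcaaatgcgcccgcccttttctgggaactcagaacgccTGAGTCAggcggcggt
Prdm1, chr10:44458752-44458831, minus strand: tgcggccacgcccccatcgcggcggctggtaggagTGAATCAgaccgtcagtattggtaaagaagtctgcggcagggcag
Areg, chr5:91139504-91139583, plus strand: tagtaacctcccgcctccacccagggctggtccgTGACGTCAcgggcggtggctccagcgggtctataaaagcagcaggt

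Immediate-early genes listed for antigen receptor signalling were higher in part. Of 23 tested, 9 were higher and 1 lower (lower: 2 without young muscle replicate 2). Nr4a1 (chromosome 15, 101254269 to 101274795), the orphan receptor Nur77, read 223 and 262 CPM in spleen and 1207 and 1205 in muscle, 2.31 ± 0.16 (edgeR adjusted p = 1.1e-07). Gadd45b, a stress-inducible regulator of MAP kinases, rose from 89.7 and 87.6 to 748 and 705 CPM, and the 2 tissues stood far apart. Nr4a3 differed by 1.33 ± 0.20, Egr1 by 1.11 ± 0.19 and Ier2 by 1.38 ± 0.16. The signal behind the levels of these genes, or of the AP-1 genes above, was not tested. Dusp5, a nuclear phosphatase of ERK, rose from 69.2 and 89.9 to 392 and 355 CPM. In the NF-kB list 7 of 27 were higher (4 without young spleen replicate 1 or without young spleen replicate 2) and 2 lower (4 without young muscle replicate 1, 0 without young muscle replicate 2 or without young spleen replicate 1 or without young spleen replicate 2). The inhibitor gene Nfkbia rose from 1533 and 1493 to 4174 and 3885 CPM and the co-regulator Bcl3 from 243 and 289 to 939.8 and 889. The subunit Nfkb1 differed by -0.03 ± 0.16 (edgeR adjusted p = 0.92).

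Genes of the antigen receptor's proximal signalling were lower in part. Of 34 tested, 16 were lower (9 without young spleen replicate 1 or without young spleen replicate 2) and 1 higher (0 without young spleen replicate 1 or without young spleen replicate 2), with a median of -0.48. Lck, the kinase that starts the signal, fell from 1610.5 and 1577 to 757 and 712 CPM, and Prkcq, protein kinase C theta, from 845 and 779.6 to 213 and 235. Tespa1 and Themis, adaptors needed in thymic selection, differed by -2.53 ± 0.24 and -2.2 ± 0.27. The receptor chain gene Cd3e read 319 and 337 CPM in spleen and 313 and 359.7 in muscle, overlapping, 0.04 ± 0.17 (edgeR adjusted p = 0.9).

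Heat shock chaperones were the stress genes most often lower. Of 26 tested, 17 were lower and 3 higher (higher: 1 without young spleen replicate 1 or without young spleen replicate 2), with a median of -1.14. Hspa1a (chromosome 17, 34969190 to 34972156), an inducible Hsp70, read 541 and 444 CPM in spleen and 11.7 and 10.5 in muscle, -5.46 ± 0.24 (edgeR adjusted p = 3.2e-09). Its near-identical neighbour Hspa1b read 464 and 422 and 10.1 and 15.5 CPM, and reads of the pair can be split or dropped in counting. Hsph1, an exchange factor of Hsp70, fell from 254 and 257 to 56.7 and 47.5 CPM. Spleen exceeded muscle without overlap in all 3, a condition for naming Hspa1a and Hspa1b among the largest fold changes. Hsp90aa1, the inducible Hsp90, differed by -1.27 ± 0.19, its activator Ahsa1 by -1.35 ± 0.18 and the co-chaperone Dnajb1 by -1.15 ± 0.15. Bag3, a co-chaperone of selective autophagy, went the other way, from 51.4 and 47.7 to 172 and 138 CPM.

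**Figure D3:**
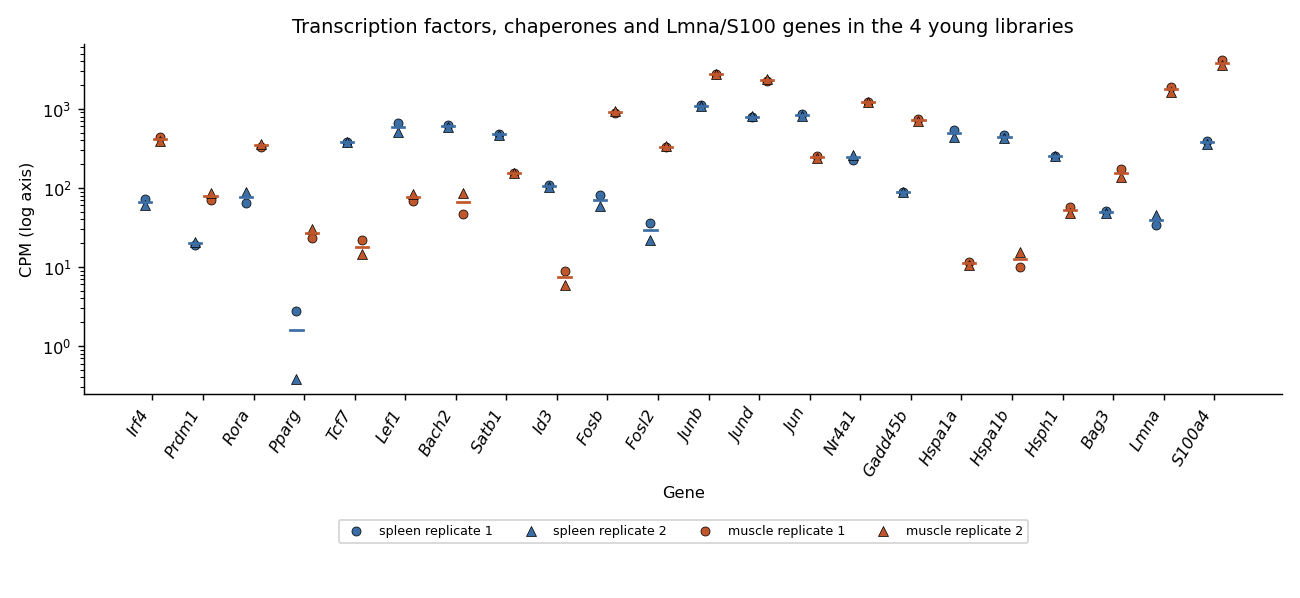
CPM on a log axis in the 4 young libraries for transcription factors, chaperones, Lmna and S100a4. Circles are replicate 1, triangles replicate 2 and short lines the mean of 2. Muscle (orange) lies below spleen (blue) for Tcf7, Lef1, Bach2, Satb1, Id3, Jun, Hspa1a, Hspa1b and Hsph1 and above it for the others.

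Of 26 nuclear lamin, S100, annexin and galectin genes, 16 were higher and 0 lower by edgeR, and 17 and 0 by DESeq2. In edgeR 0 were lower at an unadjusted p under 0.05, and the median was 1.52. Lmna (chromosome 3, 88480147 to 88509956), the A-type lamin of the nuclear envelope, read 33.6 and 45.7 CPM in spleen and 1895 and 1644 in muscle, 5.47 ± 0.26 (edgeR adjusted p = 2.0e-08). Without young muscle replicate 1 its fold change was 5.35. The calcium-binding protein genes S100a4 and S100a6 rose from 396 and 356 to 4164 and 3552 CPM and from 479 and 350.3 to 4011 and 3009.7 CPM. Vim, the intermediate filament vimentin, differed by 2.45 ± 0.16, Lgals1, galectin-1, by 2.2 ± 0.21 and Lmnb1, a B-type lamin, by 2.47 ± 0.18. Fibroblasts and myeloid cells, whose summed markers were highest in young muscle replicate 1, also express several of these genes. Each gene named here kept its call without that library, though Lmna was named in part for doing so. Young muscle replicate 2 also comes from muscle, so that fit cannot tell the part of other cells, which was not tested.

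Cdkn1a (chromosome 17, 29090976 to 29100727), the cyclin-dependent kinase inhibitor p21, read 5.61 and 7.75 CPM in spleen and 283 and 236 in muscle, 5.26 ± 0.27 (edgeR adjusted p = 7.0e-09). The D-type cyclin genes Ccnd2 and Ccnd3 fell from 527 and 584 to 233 and 186 CPM and from 1277 and 1443 to 387 and 315. Of 22 survival and death genes tested, a list that holds Cdkn1a, 2 were higher and 2 lower (9.09% each), with a median of 0.10. The shares over all genes tested were 11.4% and 10.9%, so this list was not called more often. Those called were Cdkn1a and Pmaip1 (higher) and Bcl2 and Casp8 (lower). The survival gene Bcl2 fell from 486 and 468 to 54.3 and 72.9 CPM, -2.91 ± 0.20. The death gene Pmaip1 (Noxa) rose from 22.9 and 17.8 to 58.7 and 47. Mcl1, another survival gene, read 328 and 355 CPM in spleen and 339 and 343 in muscle, overlapping, with an SE of 0.15 around a log2 fold change of 0.00. Of 36 cytokine receptors and feedback genes, 7 were higher (3 without young spleen replicate 1, 4 without young spleen replicate 2) and 10 lower (4 without young spleen replicate 1, 5 without young spleen replicate 2). The IL-6 receptor gene Il6ra fell from 354 and 321 to 77.2 and 71.9 CPM, and the interferon-gamma receptor gene Ifngr1 rose from 251 and 254 to 652 and 664. Cish, a feedback gene of STAT5, differed by 1.12 ± 0.16 and Socs1 by -0.92 ± 0.16.

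Interferon-inducible genes were lower in part. Of 49 tested, 16 were lower (10 without young spleen replicate 2) and 1 higher (0 without young muscle replicate 1 or without young muscle replicate 2 or without young spleen replicate 1; 2 under library-size scaling or by DESeq2), with a median of -0.57. The GTPase gene Iigp1 read 63.1 and 49.6 CPM in spleen and 10.9 and 17.5 in muscle, -2.0 ± 0.30 (edgeR adjusted p = 0.00022). The related GTPase genes Irgm1 and Irgm2 differed by -1.16 ± 0.22 and -0.94 ± 0.16, and the immunoproteasome gene Psmb9 by -1.03 ± 0.18. Irf7 read 95.3 and 80.6 CPM in spleen and 53.9 and 64.4 in muscle, -0.57 ± 0.21 (edgeR adjusted p = 0.057).

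Cytosolic ribosomal protein genes were lower as a group: 67 of 78 were lower and 0 higher, also 0 at DESeq2, with 0 higher at an unadjusted p under 0.05 in edgeR and a median of -0.89. These genes took 18.2% and 17.3% of the counts in the spleen libraries and 11.9% and 10.6% in the muscle libraries. Under library-size scaling 67 were lower, with a median of -0.78. Library complexity moved with tissue too: at equal depth 16649 and 17049 genes were found in spleen and 18092 and 19361 in muscle, and its part in these values was not tested.

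Markers of other cells were counted in the same way. Of 26 myeloid markers tested, 8 were higher and 0 lower, with a median of 2.37, and each of the 28 listed markers in the table had counts in at least 1 young library. The number higher was 1 without young muscle replicate 1 or without young spleen replicate 1, 19 without young muscle replicate 2, 0 without young spleen replicate 2. Without young muscle replicate 1 the median was 0.05. Lyz2, the lysozyme of myeloid cells, read 9.35 and 1.16 CPM in spleen and 116 and 12 in muscle. Of 16 fibroblast markers, 3 were higher and 0 lower (higher: 1 without young muscle replicate 1 or without young spleen replicate 2, 14 without young muscle replicate 2; 6 by DESeq2), and each had counts in at least 1 young library. The collagen gene Col1a1 read 5.14 and 3.49 CPM in spleen and 150.5 and 15 in muscle, 4.27 ± 1.17 (edgeR adjusted p = 0.042), and its value without young muscle replicate 1 was 1.78, no longer called. Its call also ended without young spleen replicate 1 (4.55) or replicate 2 (4.00). Both markers were several times higher in muscle replicate 1 than in replicate 2. The 3 fibroblast markers called higher were Col1a1, Fbn1 and Ly6a, of which T cells also express Ly6a. Summed muscle fibre markers were 103 and 93.4 CPM in spleen and 187 and 270 in muscle.

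**Figure D4:**
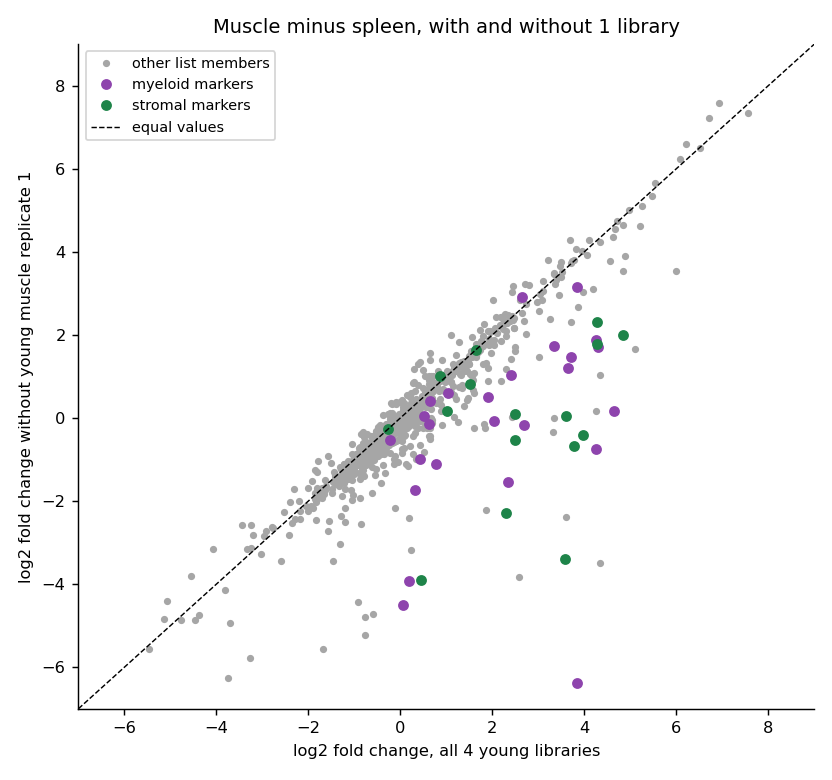
Log2 fold changes of list members with all 4 young libraries (horizontal) and without young muscle replicate 1 (vertical). The dashed line marks equal values. Most list members lie near it, and most myeloid (purple) and stromal (green) markers lie below it.

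The tissue difference of young mice was set against that of mice over 6 months old by an edgeR test of the difference itself. In the older mice 1413 genes (9.57%) were higher in muscle and 1370 (9.27%) lower, and 1472 genes were called in the same direction at both ages. The difference is signed, so a gene lower in muscle by more in young mice counts as below. The young value was above that of older mice for 173 genes (1.17%) and below it for 199 (1.35%), together 2.52% of the genes tested. These counts were 77 and 87 without young spleen replicate 1, 81 and 90 without young spleen replicate 2, 77 and 82 without aged spleen replicate 1, 77 and 85 without aged spleen replicate 2, and 391 and 298 without young muscle replicate 2. The genes named next kept that call in all 18 alternatives that gave a value. Most of them were named for a small p in this contrast and shown here for keeping the call. Their stability was therefore set by that choice and does not stand for all called genes. Itgae differed between tissues by 3.09 in young and 0.05 in older mice, a difference of 3.04 ± 0.23 (edgeR adjusted p = 3.1e-06). Il10 differed by 2.96 and 0.28, a difference of 2.68 ± 0.26 (edgeR adjusted p = 3.2e-05). Cd40lg was higher in muscle in young mice and lower in older mice, 3.48 against -4.83. Sox9, a factor of progenitor cells, had values of 3.16 and -1.02. In the other direction, Satb1 had values of -1.63 in young and 0.24 in older mice, a difference of -1.87 ± 0.23 (edgeR adjusted p = 0.00034). Zic1, a zinc finger factor of neural development, was lower in muscle in young mice and higher in older mice, -5.03 against 1.76, and Maff likewise, -1.64 against 2.42. Among the IL-1 receptors, Il1r1 had 4.33 and -0.19.

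**Figure D5:**
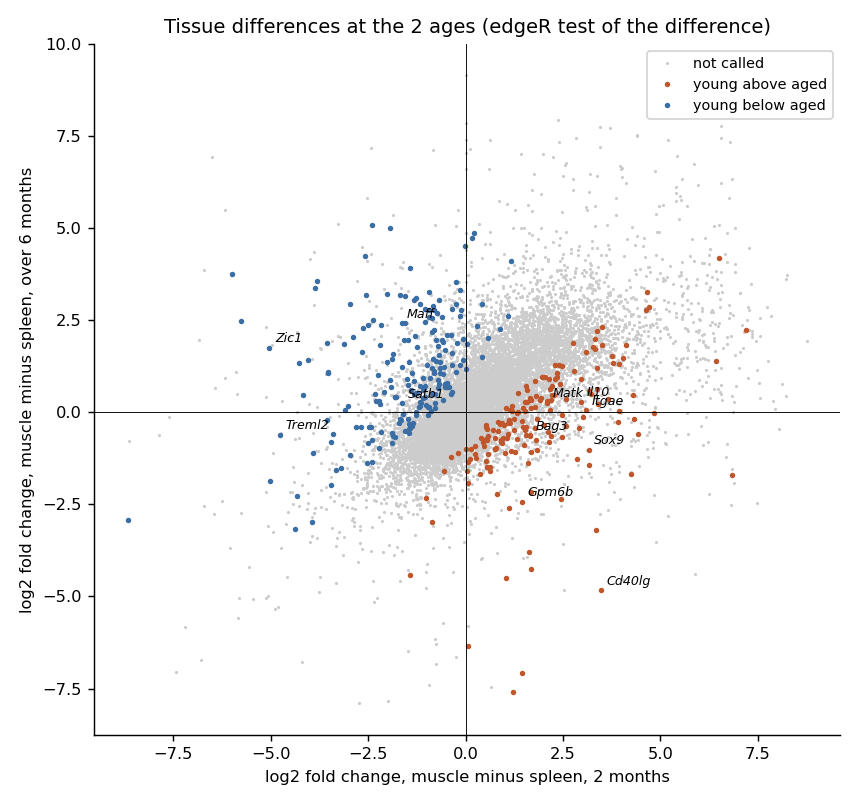
Log2 fold change of muscle over spleen at 2 months (horizontal) and at over 6 months (vertical) for the 14772 genes tested. Orange and blue points are the 173 and 199 genes whose tissue difference was above or below that of older mice by edgeR. Zic1 lies at the upper left and Cd40lg at the lower right.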

How the data were processed

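The members are the 4 young libraries, and the gene lists, promoters and tests were chosen with earlier results of these data known. The authors deposited whole-number read counts for 38406 gene symbols in 8 libraries, not normalized. Per the submitters' processing notes, TopHat2, TopHat, Picard, SAMtools 0.1.19, HTSeq and the mouse build mm10 were used. For the annotation and strand setting nothing is given in the sources used here. Per the labels' protocols, RNA was amplified by in vitro transcription and PCR, with no molecular identifiers described, so counts are reads and not molecules.

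From these counts edgeR 4.0.16 in R 4.3.3 kept 14772 genes (filterByExpr), scaled by TMM and fitted 1 robust quasi-likelihood model with a coefficient for each of 4 groups (4 residual degrees of freedom, biological coefficient of variation 0.288). Tests were two-sided, adjusted by Benjamini-Hochberg over all genes, at 0.05. An SE is the log2 fold change over the square root of F. CPM uses the TMM-adjusted library size. The 38 lists are described by counts and medians only. Named genes were first the 20 largest fold changes per direction called with and without young muscle replicate 1. These also needed a mean log2 CPM of at least 4 in the young libraries and no overlap between tissues. Further named genes were key members and the 6 smallest p per direction of each list, and the 8 smallest p per direction of the age contrast. The text gives a part of them, and some genes are not reported here. Positions are from GENCODE M21 on GRCm38, counted from 1.

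On simulated data with the group sizes of this comparison (14772 genes), few genes were changed: 68 by 2-fold, 59 by 4-fold and 68 by 8-fold. The shares called were 22.1%, 55.9% and 79.4% in that order, and 9 unchanged genes were called. In the real data 22.3% of genes were called. The Benjamini-Hochberg cutoff depends on the share of changed genes, so the simulated shares need not hold for the real data. Alternatives were other scalings, DESeq2 1.42.0, no filter on low counts, only the young groups, leaving out each library, and a replicate block.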

Additional observations from a re-analysis of the deposited data

Results flagged for a closer look

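The 39 genes below are those named elsewhere in the text, out of 173 and 199 over all genes tested, for which the tissue difference of young mice differed from that of mice over 6 months old by the edgeR test of the difference itself, at an adjusted p under 0.05. Values are the tissue difference (muscle minus spleen, log2) in young minus that in older mice. Some of the 39 were named for a small p in this contrast, so their stability was partly set by that choice. 16 of the 39 kept the call under all 18 alternatives that gave a value. Among these, the values above 0 were Bag3 2.28, Cd40lg 8.31, Il10 2.68, Il1r1 4.52, Il1r2 2.56, Itgae 3.04, Slc16a3 2.17, Sox9 4.18 and Tnfrsf1b 1.49. Those below 0 were Ccnd2 -2.01, Il6ra -1.65, Lef1 -1.79, Maff -4.06, Satb1 -1.87, Themis -2.43 and Zic1 -6.79.

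The other 23 lost the call under at least 1 alternative. Their values above 0 were Ccr3 2.33, Cd44 1.07, Cebpb 1.38, Ctla4 1.01, Fgl2 1.67, Fosl2 1.19, Icos 1.11, Il18r1 1.5, Jund 0.83, Klrg1 1.39, Lmnb1 1.22, Runx2 1.28, S100a4 1.16, S100a6 1.45 and Tnfrsf4 0.81. Those below 0 were Ahsa1 -1.07, Bach2 -1.69, Irf7 -1.61, Irgm2 -1.09, Itga4 -1.66, Klf2 -1.27, Prkcq -1.21 and Tcf7 -1.2. The number that lost it was 3 without aged muscle replicate 1, 5 without aged muscle replicate 2, 19 without aged spleen replicate 1, 18 without aged spleen replicate 2, 6 without young muscle replicate 1, 4 without young muscle replicate 2, 20 without young spleen replicate 1 and 18 without young spleen replicate 2.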

How the results depend on the processing

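Of the 108 genes named in the young comparison that were called, 107 kept their call and direction under all 15 alternatives. Col1a1 lost its call. None of the 108 changed direction. Genes were named in part for large fold changes, small p or passing without young muscle replicate 1. Their stability was therefore partly set by that choice and does not stand for all called genes. Counts of higher genes over all genes ranged from 675 to 1884 with each library left out (660 to 1891 with the tested genes held, 3 of these 4 fits added after the data were seen), and of lower genes from 808 to 1625 (784 to 1619 held). The lowest came without young spleen replicate 1 (675 and 808; held 660 and 784) and replicate 2 (810 and 850; held 776 and 849). List members higher went from 188 to 123 without young spleen replicate 1, within a range of 123 to 216 over the libraries left out. The age contrast was the least settled: 173 above and 199 below became 371 and 299 with no filter on low counts, and ranged from 77 to 391 and from 82 to 298 with a library left out (66 to 348 and 71 to 298 held, with 72 and 88 without young spleen replicate 2). The cause was not tested.

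The replicate numbers do not pair libraries by their labels, and same-numbered young libraries correlated in their deviations at 0.108. With a replicate block, 1872 genes were higher and 1754 lower, and within each age 1776 and 1616. In the simulated data 22.1% of genes changed 2-fold were called at this depth with 2 libraries a group. Far fewer genes were changed there than were called here, so this share need not hold for the real data.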

Other observations

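Metabolic lists were mixed. Of 19 lipid uptake and handling genes, 7 were higher in young muscle (11 without young muscle replicate 2, 4 without young spleen replicate 1) and 1 lower (2 without young muscle replicate 1, 0 without young muscle replicate 2 or without young spleen replicate 2), against 11.4% and 10.9% of all genes tested. Dgat1, the enzyme of the last step of triglyceride synthesis, read 99.5 and 128 CPM in spleen and 1494 and 1620.0 in muscle, 3.77 ± 0.21 (edgeR adjusted p = 2.0e-08), and both muscle libraries were far above both spleen libraries. Of 29 glycolysis and hypoxia genes, 7 were higher (2 without young muscle replicate 1, 4 without young spleen replicate 1, 3 without young spleen replicate 2) and 1 lower. The lactate exporter gene Slc16a3 rose from 20.6 and 41.5 to 338 and 317 CPM, and Egln3, a prolyl hydroxylase of the oxygen sensor, from 21.5 and 19.8 to 82.1 and 118. Of 72 nuclear genes of oxidative phosphorylation, 1 was higher (3 without young muscle replicate 2, 0 without young spleen replicate 1) and 1 lower (7 without young muscle replicate 1, 0 without young muscle replicate 2 or without young spleen replicate 1 or without young spleen replicate 2). Their median was -0.08. Under library-size scaling 4 were higher and 0 lower, with a median of 0.03, and by DESeq2 1 was higher and 0 lower.

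Of 42 S phase and G2/M genes, 7 were higher (3 without young muscle replicate 1 or without young spleen replicate 1) and 3 lower, with a median of 0.52, or -0.04 without young muscle replicate 1. With all 4 young libraries the shares were 16.7% higher and 7.14% lower, against 11.4% and 10.9% of all genes tested. Top2a, a topoisomerase of dividing cells, read 36.5 and 43.4 CPM in spleen and 141 and 84.9 in muscle, 1.5 ± 0.26 (edgeR adjusted p = 0.00082).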
